A study of Mus musculus with 2 samples.

Results

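Actb, Actg1, Pfn1, Tmsb4x, Arpc4, Brk1, Capza2, Capzb and Evl are 9 genes for actin and for proteins that build, feed, cap or extend actin filaments, and their mRNAs were examined for enrichment with the RNA helicase Mov10 in newborn mouse brain. The members were chosen by peaks called from the same reads that are described here: each of the 9 genes had at least 1 deposited enrichment peak that shared at least 1 base with an exon of the gene, the peak and the gene being on opposite strands. This gave 18 peaks in 9 genes, of 687 such exonic peaks in 465 protein-coding genes and of 2296 deposited peaks in all. Because a peak is a place that was called for its IP reads over the input, the ratios of these genes describe them and test nothing. No other peak of the list lay within the span of any of the 9 genes, on either strand. For Arpc4, Brk1 and Capza2 this says nothing of the gene's own strand, where the list holds no peak anywhere on chromosome 6.

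RNA immunoprecipitation (RIP) purifies a protein with the RNA attached to it, and the RNA is then sequenced beside the total RNA of the same extract. The brains of 28 wild type C57bl/6 pups at P2 (postnatal day 2) were pooled, homogenized without UV cross-linking, taken first through an IP with an irrelevant rabbit anti-EGFP antibody, and then through the IP with a Mov10 antibody. The Mov10 IP gave 1 library and the total input RNA of the same brains gave 1 library, so there is no replicate and no estimate of the spread between animals, and the RNA of the irrelevant IP was not analysed here. In whole brain, a difference in the cells that hold an mRNA and a difference in the amount per cell cannot be told apart. The table gives reads within peaks only, so the tissue was not checked against marker genes.

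Mov10 is an RNA helicase that binds mRNAs, often in their 3′ UTRs, and works with Argonaute proteins and FMRP in their translational control. Actin monomers (G-actin) join end to end into filaments (F-actin) that give growth cones and dendritic spines their shape and their movement. Profilin delivers monomers to the growing barbed end of the filament and thymosin beta-4 holds monomers in reserve. The Arp2/3 complex, switched on by the WAVE complex, starts branches, capping protein closes barbed ends, and Ena/VASP proteins keep them growing.

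The bases of the mRNA that lay inside a peak are printed for the places on which the results turn, 5′ to 3′ on the strand of the gene, from GENCODE transcripts of release M21 (GRCm38, the mm10 assembly). Capitals mark runs of at least 3 G. The first set shows the coding bases of both actin mRNAs, which have close copies elsewhere in the genome. The Actb stretch runs over the end of exon 5 and the start of exon 6 on the minus strand of chr5:142903798-142904170 and ends with the stop codon. The Actg1 stretches join the end of exon 2 to the start of exon 3 (chr11:120347801-120348000, minus strand) and the end of exon 4 to the start of exon 5 (chr11:120346801-120347000, minus strand), with the introns left out.
Actb, coding end: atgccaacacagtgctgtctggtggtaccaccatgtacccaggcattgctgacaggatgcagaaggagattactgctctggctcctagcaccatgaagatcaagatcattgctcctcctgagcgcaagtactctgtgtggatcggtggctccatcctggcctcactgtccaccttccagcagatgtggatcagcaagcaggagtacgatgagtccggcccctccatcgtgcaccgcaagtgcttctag
Actg1, exons 2 and 3: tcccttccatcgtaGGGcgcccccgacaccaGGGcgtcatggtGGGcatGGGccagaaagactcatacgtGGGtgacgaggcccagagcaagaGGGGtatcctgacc
Actg1, exons 4 and 5: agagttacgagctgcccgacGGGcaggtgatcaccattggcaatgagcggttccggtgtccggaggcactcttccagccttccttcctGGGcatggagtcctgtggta

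The second set shows the monomer-binding genes, which hold the lowest ratio of all and the widest difference between peaks of 1 mRNA. The Pfn1 stretches are the start of the coding sequence in exon 1 (chr11:70654401-70654480, minus strand) and most of exon 2 (chr11:70652801-70652979, minus strand). The Tmsb4x stretch opens at its start codon in exon 2 (chrX:167207937-167208036, minus strand).
Pfn1, exon 1: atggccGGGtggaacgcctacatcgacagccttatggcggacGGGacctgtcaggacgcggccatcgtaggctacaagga
Pfn1, exon 2: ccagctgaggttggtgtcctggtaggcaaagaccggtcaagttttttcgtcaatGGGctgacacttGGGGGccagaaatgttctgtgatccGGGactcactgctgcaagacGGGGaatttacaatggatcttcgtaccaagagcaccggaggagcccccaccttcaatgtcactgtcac
Tmsb4x, exon 2: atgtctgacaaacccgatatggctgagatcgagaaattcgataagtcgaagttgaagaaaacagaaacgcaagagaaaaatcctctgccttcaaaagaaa

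The third set shows the genes with the highest ratios, Evl and Capzb. The Evl stretches are the last bases of exon 2 (chr12:108648401-108648483), exon 3 (chr12:108653001-108653099), exon 6 (chr12:108675601-108675626) and exon 7 (chr12:108676201-108676223), all on the plus strand, and they are the only bases of this mRNA inside those 4 peaks. For Capzb the 30 bases of its 3′ UTR peak with the most G are given (chr4:139291507-139291536, plus strand).
Evl, end of exon 2: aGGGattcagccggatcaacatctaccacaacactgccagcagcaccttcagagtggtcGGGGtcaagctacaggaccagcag
Evl, end of exon 3: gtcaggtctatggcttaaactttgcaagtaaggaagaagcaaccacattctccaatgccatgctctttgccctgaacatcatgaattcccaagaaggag
Evl, end of exon 6: gagccaagctaaggaGGGtgcagcgg
Evl, end of exon 7: atgaacaagctgctggctaagag
Capzb, 3′ UTR: aGGGctGGGGacaGGGGacagcagtggagg

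Reads were counted per peak. Levels are given as RPKM, reads per kb of peak (1000 bases) and per 1000000 aligned reads of the library. The ratio is the IP over the input on that scale, and its exact 95% interval covers counting error only. All 18 peaks had an interval above 1, where 97.1% of the 687 exonic peaks did, so the members' count is at the background of a list of called peaks. The authors' adjusted p was at or under 0.05 for 18 of the 18 peaks, and 87.2% of all exonic peaks had such a value. It was deposited as 0 for 10 of them, and the highest was 3.1e-14, at Actb.

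Most of these mRNAs were enriched less than the typical gene with a peak. The median ratio over the 9 genes was 4.51, and over all 465 genes it was 14.4. The ratio of 7 of the 9 genes lay under the median of all genes, with Capzb and Evl above it. By peak, the median was 6.87 for the 18 and 14.1 for all 687, and 12 of the 18 lay under the latter. From the lowest to the highest gene the order was Tmsb4x, Brk1, Actb, Actg1, Pfn1, Arpc4, Capza2, Capzb and Evl. The intervals of 4 neighbouring pairs overlapped, those of Tmsb4x and Brk1, Brk1 and Actb, Arpc4 and Capza2, and Capzb and Evl. Overlap of intervals is not a test of a difference, and whether counting error separates the genes of these pairs was not tested. The other 4 pairs were apart by more than counting error, which says nothing of the spread between pools of animals.

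**Figure D1:**
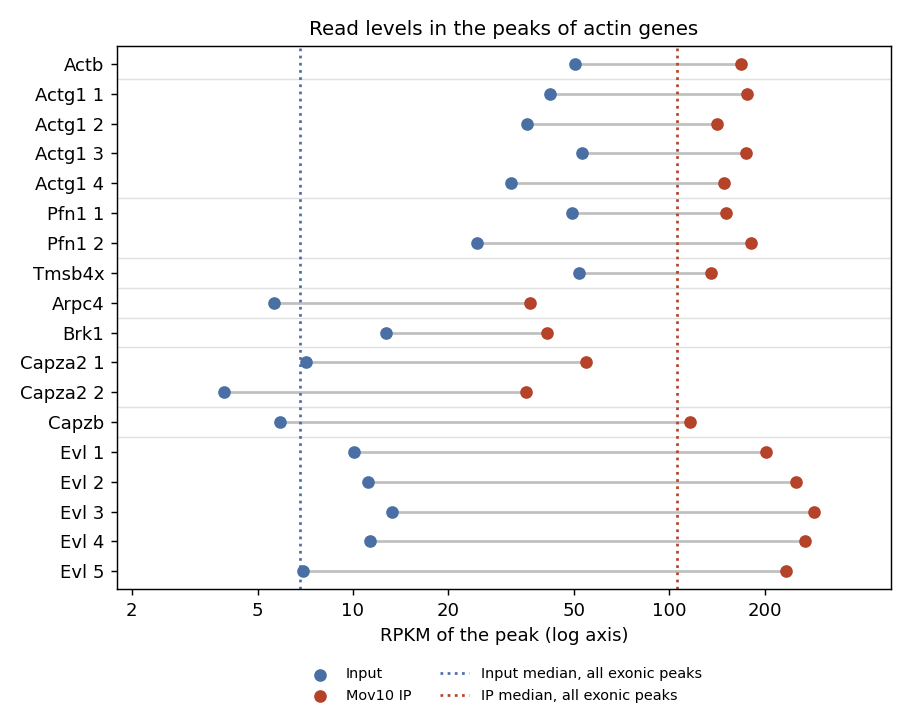
RPKM on a log axis, 1 line per peak and peaks of a gene numbered from the 5′ end of its mRNA, for the input (blue) and the Mov10 IP (red), with dotted medians of all 687 exonic peaks at 6.83 and 106. The peaks of Actb, Actg1, Pfn1 and Tmsb4x stand far to the right in the input, at 24.7 to 53.0, while Evl is highest in the IP, at 202 to 286.

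**Figure D2:**
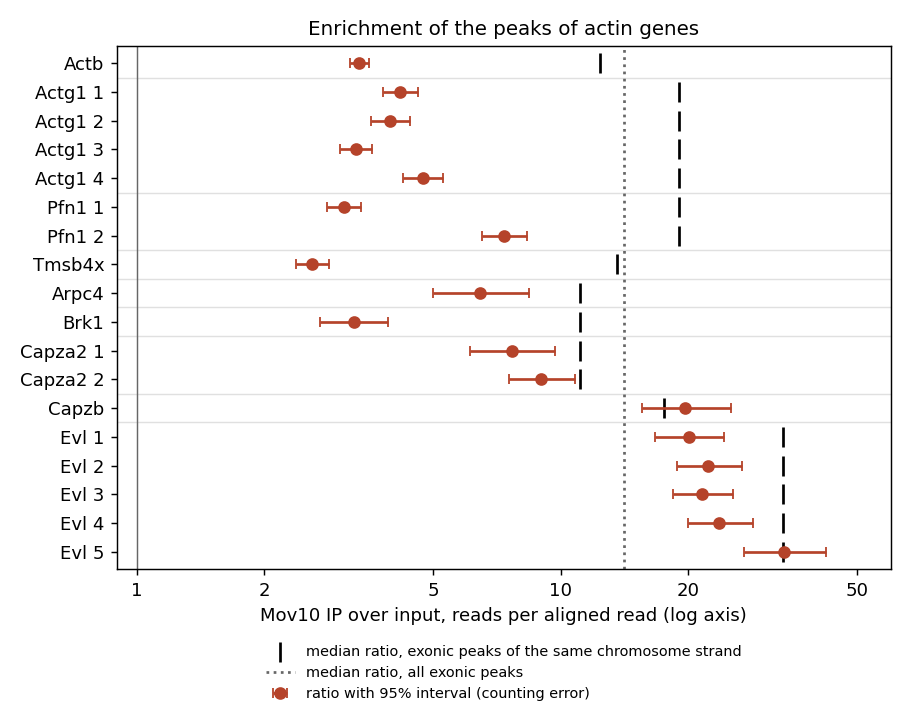
Ratio of the Mov10 IP to the input by peak on a log axis, with exact 95% intervals for counting error, the median of all exonic peaks (dotted, 14.1) and the median of the exonic peaks of the same chromosome strand (black bars). All intervals lie above 1, and only Capzb and the last Evl peak reach the median of their own chromosome strand.

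The actins come first. Actb and Actg1 encode beta-actin and gamma-actin, the cytoplasmic actins of nonmuscle cells, and Acta1, Acta2, Actc1 and Actg2, the muscle actins, had no exonic peak. Actb had 1 peak of 580 bases on the plus strand of chr5:142903591-142904170. It held 6994 IP reads and 1742 input reads, or 169 and 50.4 RPKM. The ratio was 3.35 (95% interval 3.18 to 3.53), and 5.16% of the 465 genes had a ratio at or under it. By the input level, 96.8% of the exonic peaks lay at or under this peak, so it was among the most abundant places of the list before any enrichment. The peak covered 455 bases of the mRNA of 1920 bases, 248 of them at the end of the coding sequence and 207 at the start of the 3′ UTR.

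Actg1 had 4 peaks on the plus strand of chromosome 11, which were spread from the coding sequence to the end of the 3′ UTR. The first (chr11:120347801-120348000, exons 2 and 3) held 2520 IP reads and 501 input reads, a ratio of 4.19 (3.81 to 4.62). The peak at chr11:120346801-120347000 (exons 4 and 5) held 2016 and 423 reads, a ratio of 3.97 (3.58 to 4.42). Both are coding, and their intervals overlap. A miRNA gene on the strand of Actg1, Gm23419, shares 19 bases with the latter peak. The peak at chr11:120346201-120346400 opened 11 bases before the end of the coding sequence and ran into the 3′ UTR, with 2498 and 632 reads and a ratio of 3.29 (3.02 to 3.60). The last peak, chr11:120345601-120345800, held the final 111 bases of the mRNA, with 2138 and 377 reads and a ratio of 4.73 (4.24 to 5.29). The highest ratio was 1.43 times the lowest, and the intervals of those neighbouring places in the 3′ UTR did not overlap. Summed over the 4 peaks, Actg1 stood at 3.96 (3.77 to 4.16), above Actb by more than counting error. Both actin mRNAs thus had a peak over the stop codon, at 3.35 in Actb and 3.29 in Actg1, with intervals that overlap.

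The reads of the actin peaks may be shared with copies, because actin has many processed pseudogenes and the peak caller gave each read with several alignments to a single place. Near-identical copies, of at least 95% identity over at least 100 bases of another gene's transcript, were found for 3 of the 18 peaks (16.7%) and for 66 of the 657 exonic peaks with a transcript sequence. All 3 are actin peaks. A peak with under 100 exonic bases could hardly meet that length, and 5 of the 18 (27.8%) and 9.44% of the 657 were that short. The 5 were the peaks of Brk1 and of Evl other than its last, so finding no copy there means little. The Actb peak had 1 copy, the transcribed pseudogene Gm15725, at 96.7% identity over 244 bases, and at 93.0% over 256 bases it also matched Actg1 itself. The coding Actg1 peaks had 5 and 6 copies, all processed pseudogenes, and Gm12715 matched both at 100% over 107 and 108 bases. The other Actg1 peaks, in the 3′ UTR, had none, and their ratios of 3.29 and 4.73 lay on either side of the coding ones. Of the copies, Gm15725 had an exonic peak of its own (chr16:37883161-37883370), with 455 IP reads and 105 input reads and a ratio of 3.61 (2.92 to 4.51). This interval overlaps that of Actb. Which of these genes gave the reads cannot be told apart from the deposited counts.

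The monomer-binding genes had input levels like those of the actins. Pfn1 encodes profilin 1, and its peaks differed most among the genes with several. The peak over the 5′ UTR and start codon (chr11:70654401-70654600) held 2166 IP reads and 586 input reads, a ratio of 3.08 (2.81 to 3.38). The peak in exon 2 (chr11:70652801-70653000), with 179 coding bases, held 2592 and 294 reads, a ratio of 7.35 (6.51 to 8.32). The ratio in exon 2 was thus 2.39 times that at the start codon, with intervals far apart. In RPKM, the IP was 151 at the start codon and 181 in exon 2, while the input was 49.1 and 24.7, so most of this difference lay in the input. Summed over both, Pfn1 had 4758 and 880 reads and a ratio of 4.51 (4.19 to 4.85). Its peaks covered 44.0% of the mRNA, the largest share of the 9 genes.

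Tmsb4x encodes thymosin beta-4, the main monomer reserve protein of many cells. Its peak (chrX:167207841-167208045) covered 109 bases of exon 2, from just before the start codon on, and held 1980 IP reads and 635 input reads. The ratio was 2.60 (2.38 to 2.85), the lowest of the 9 genes, and 3.66% of the 465 genes lay at or under it. Its input level of 52.0 RPKM was near those of Actb, at 50.4, and of the first Pfn1 peak, at 49.1.

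The genes that start and branch filaments had the fewest IP reads in their peaks. Arpc4, a subunit of the Arp2/3 complex, had 1 peak within its 3′ UTR (chr6:113389401-113389600) with 518 IP reads and 67 input reads, a ratio of 6.44 (4.99 to 8.44). An exon of Ttll3, a tubulin glycylase gene on the same strand, covers 142 bases of this peak, so the reads may belong to either gene. Brk1, the smallest subunit of the WAVE complex, had a peak over 96 coding bases of exon 1 (chr6:113604801-113605000) with 589 and 151 reads. Its ratio was 3.25 (2.71 to 3.91). In RPKM, the IP was 36.2 at Arpc4 and 41.2 at Brk1, and 15.4% and 22.7% of the exonic peaks lay at or under these levels. Both were near the median of 39.3 on their chromosome strand. The 3′ UTR peak of Capza2, a capping gene on the same strand, was lower, at 35.2.

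Capza2 and Capzb encode the alpha-2 and beta subunits of capping protein, which work as a dimer. Capza2 had a peak over its 5′ UTR and the first 39 coding bases (chr6:17637001-17637200) with 782 IP reads and 85 input reads, a ratio of 7.67 (6.12 to 9.71). A longer peak of 600 bases in the 3′ UTR (chr6:17666201-17666800) held 1509 and 140 reads, a ratio of 8.98 (7.55 to 10.8). The intervals overlap, and a difference between these ends of the mRNA was not tested. The sum was 2291 and 225 reads, a ratio of 8.49 (7.40 to 9.78). The partner subunit stood higher. Capzb had 1 peak in its 3′ UTR (chr4:139291351-139291555) with 1704 and 72 reads, and its ratio was 19.7 (15.6 to 25.3). Of the 465 genes, 24.7% lay at or under Capza2 and 68.8% at or under Capzb.

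Evl encodes an Ena/VASP protein that keeps barbed ends growing, and it had the most peaks and the highest ratio. Its 5 peaks lay on the minus strand of chromosome 12. The peak at the end of exon 2 (chr12:108648401-108648600) held 2890 IP reads and 120 input reads, a ratio of 20.1 (16.7 to 24.3). At the end of exon 3 (chr12:108653001-108653200) there were 3592 and 134 reads, a ratio of 22.3 (18.8 to 26.8). Exons 6 and 7, which follow each other closely in the genome, had a peak each. The former (chr12:108675601-108675800) held 4098 and 158 reads, a ratio of 21.6 (18.4 to 25.5), and the latter (chr12:108676201-108676400) held 3840 and 135 reads, a ratio of 23.7 (20.0 to 28.4). The peak in the last exon, over the stop codon and the start of the 3′ UTR (chr12:108688001-108688200), held 3349 and 83 reads, a ratio of 33.6 (27.1 to 42.3). The intervals of the first 4 overlap one another, and the last lay above the first 3 by more than counting error and overlapped the fourth only. The sum was 17769 and 630 reads, a ratio of 23.5 (21.7 to 25.5), and 77.4% of the 465 genes lay at or under it. Of the 45775 IP reads in the 18 peaks, Evl thus held more than any other of the 9 genes.

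**Figure D3:**
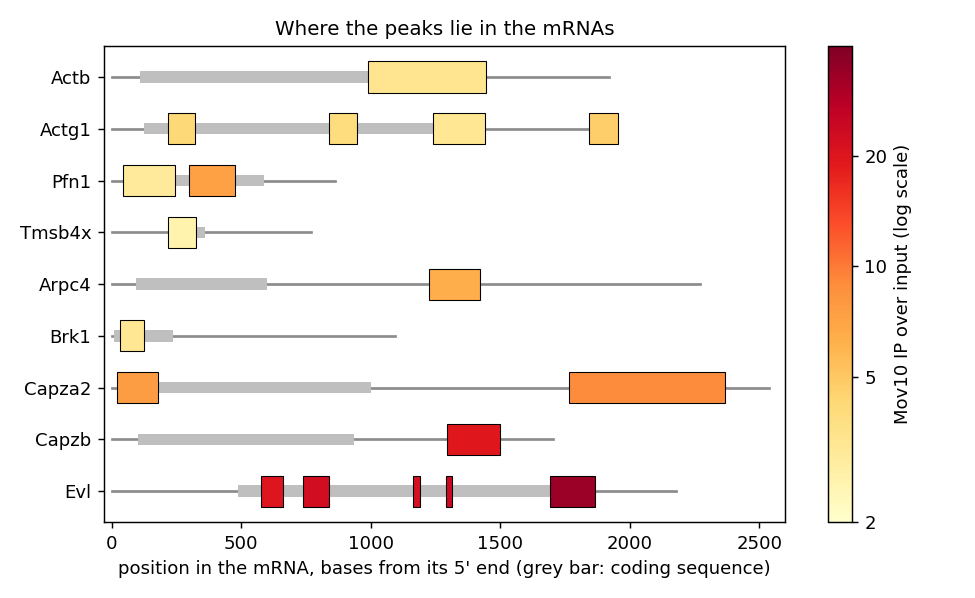
Position of the 18 peaks in the 9 mRNAs in bases from the 5′ end, with the coding sequence as a grey bar and each box filled by the ratio of IP to input on a log scale. The peaks lie at or near the start of the coding sequence (Pfn1, Tmsb4x, Brk1, Capza2), further inside it (Actg1, Pfn1, Evl), over the stop codon (Actb, Actg1, Evl) and within the 3′ UTR (Actg1, Arpc4, Capza2, Capzb), with the darkest boxes in Evl and Capzb.

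The peaks of Evl touched little of the mRNA. The peak at exon 6 held the last 26 bases of that exon, whose first 204 bases lay before the peak. The peak at exon 7 held the last 23 bases, after 99 outside it. Exons 2 and 3 showed the same layout, with 83 and 99 bases inside and 86 and 79 bases before the peak. These 4 peaks each began within an exon and went on into the intron after it, and the sequences printed above are all the exonic bases they hold. The counts of the deposited table do not separate exonic from intronic reads. The place of a peak was set in steps by the caller, which cut each chromosome strand into bins of a size it chose. The shortest exonic peak was 200 bases on the strands of Evl, Actg1, Pfn1, Arpc4, Brk1 and Capza2, 205 on those of Capzb and Tmsb4x, and 290 on that of Actb. Under 50 exonic bases were held by 2 of the 18 peaks (11.1%) and by 2.13% of the 657.

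Over all 18 peaks, 39.5% of the exonic bases were coding, 52.5% lay in 3′ UTRs and 7.98% in 5′ UTRs. Over the 657 exonic peaks these shares were 54.1%, 37.1% and 8.85%. The Capza2 peak of 600 bases weighs heavily here, and without it the shares were 48.8%, 41.3% and 9.87%. Counted by peak, coding bases occurred in 14 of the 18 (77.8%) and in 72.1% of the 657, and 3′ UTR bases in 7 of the 18 (38.9%) and in 33.8%. The median G content was 28.2% for the 18 peaks and 24.9% for all, and the median GC content was 51.5% and 54.0%. A run of at least 3 G occurred in 12 of the 18 (66.7%) and in 81.0% of the 657, over a median of 136 and 200 exonic bases. G content is that of the exonic bases, while the ratio takes the reads of the whole peak, intron included. In Evl the 26 bases of exon 6, 13.0% of their peak, were 46.2% G, at or above 99.4% of the exonic peaks. The 99 bases of exon 3, 49.5% of their peak, were 20.2% G. These peaks had ratios of 21.6 and 22.3. The bases of exons 2, 7 and 14 were 26.5%, 30.4% and 27.9% G, at ratios of 20.1, 23.7 and 33.6. Whether G content and ratio go together within Evl was not tested. Over all 657 peaks the rank correlation of the ratio with G content was -0.06, given as a description.

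Most of the low ratios went with a high input. The exceptions were Arpc4 and the 3′ UTR peak of Capza2, with ratios of 6.44 and 8.98 and inputs of 5.62 and 3.91 RPKM. The other Capza2 peak, with a ratio of 7.67, had an input of 7.13, only just over the median of all exonic peaks. The input level lay over the median of all exonic peaks, 6.83 RPKM, in 15 of the 18, and the IP level over its median of 106 in 14. The 15 include all peaks of Evl, whose ratios were high, so this count does not describe the low ratios alone. In the IP the actin and monomer-binding peaks, at 135 to 181, differed little from one another. Their input, at 24.7 to 53.0, lay above that of every Evl peak, at 6.96 to 13.3. Brk1, with a ratio of 3.25, had an input of 12.7, and its own chromosome strand had a median of 3.35. Its IP level of 41.2, low among all exonic peaks, was near the median of 39.3 on that strand. Over the 687 exonic peaks the rank correlation was -0.40 between the ratio and the input level and 0.30 between the ratio and the IP level. These are descriptions only, since the ratio is made from the same counts and the peaks share 2 libraries.

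**Figure D4:**
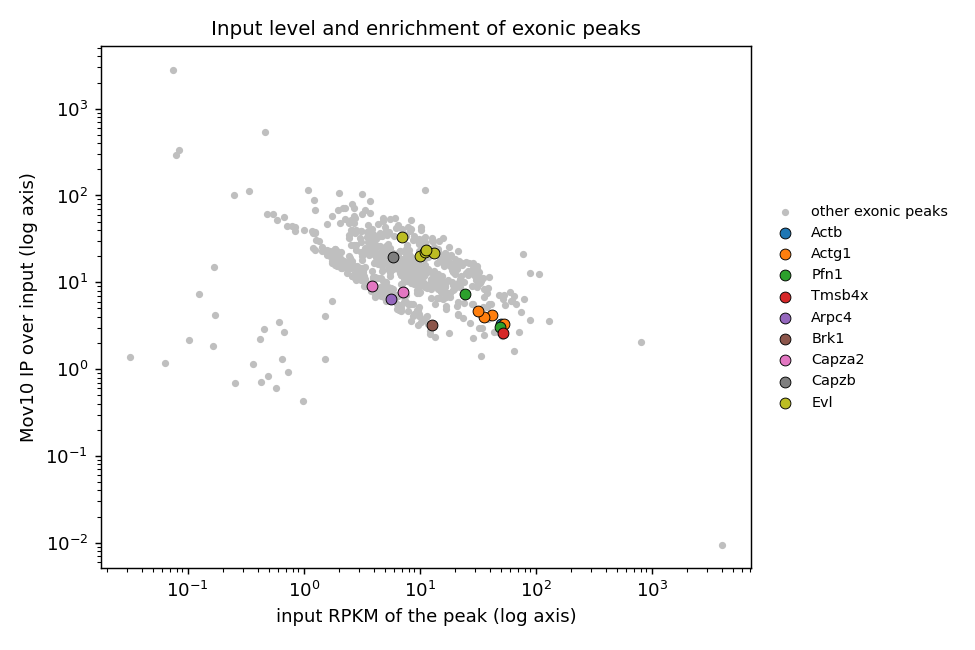
Ratio of IP to input against the input level of each exonic peak, both on log axes, with the 9 genes coloured and the other peaks in grey (the 11 exonic peaks with no input read are not drawn, and the Actb point lies under Actg1). The ratio tends to fall as the input rises, and Actb, Actg1, Pfn1 and Tmsb4x sit at the high end of the input with ratios of 2.60 to 7.35.

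The chromosome strand of a peak moved with its level and with its eFDR, the empirical false discovery rate that the caller gives. Against the exonic peaks of their own chromosome strand, 16 of the 18 lay under the median ratio, and 16 of the 18 had an input level over the median. On the minus strand of chromosome 12 the 13 exonic peaks had a median ratio of 33.4, so that Evl, high among all genes, was below that median in 4 of its 5 peaks. The minus strand of chromosome 6, with Arpc4, Brk1 and Capza2, had 113 exonic peaks with a median ratio of 11.1 and a lowest IP level of 29.7 RPKM. On the plus strand of chromosome 11, with Actg1 and Pfn1, the lowest IP level of the 41 exonic peaks was 116, and on the plus strand of chromosome 5, with Actb, it was 135. The levels at which a gene entered the list thus differed between chromosome strands, and an mRNA with the IP level of Arpc4 has no counterpart among the exonic peaks of those strands.

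The eFDR was at or under 0.05 for 9 of the 18 peaks, and for 37.6% of all exonic peaks. The 9 were the peaks of Arpc4, Brk1, Capza2 and Evl. On their chromosome strands every exonic peak passed, 113 of 113 and 13 of 13. On the strands of Actb, Actg1, Pfn1, Tmsb4x and Capzb none did, with an eFDR of 0.789 at Actb, 0.227 to 0.277 at Actg1 and Pfn1, 0.148 at Tmsb4x and 0.0682 at Capzb. Over the 41 chromosome strands with an exonic peak, all exonic peaks passed on 8, none on 31 and some on 2. Capzb, with a ratio of 19.7, was therefore on the failing side and Brk1, with 3.25, on the passing side.

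Of the other genes on the lists of actin assembly used here, 1 had an exonic peak. The lists do not hold every gene that acts on actin, and genes outside them were not counted. The lists together hold 83 genes, chosen with these results known, and 10 of them (12.0%) had an exonic peak, where 2.11% of the 22028 protein-coding genes did. The 9 described above make up all but 1 of the 10, and were chosen for having one. Without them 1 of 74 genes (1.35%) had a peak, a share near that of all protein-coding genes. The tenth was Wipf3, which encodes a partner of N-WASP, with 443 IP reads and 15 input reads at chr6:54485801-54486000 and a ratio of 24.6 (14.8 to 44.4). By group, a peak was found for 2 of the 6 actins, 2 of the 17 genes of monomer binding and recycling, 1 of the 10 Arp2/3 subunits, 2 of the 13 genes of the WAVE complex and N-WASP, 2 of the 12 capping genes and 1 of the 3 Ena/VASP genes. No formin or other nucleator (0 of 16) had one. For 65 of the 83 genes, the strand opposite the gene held any deposited peak on that chromosome, and 15.4% of these had an exonic peak. The share was 2.80% of the 16604 protein-coding genes placed in that way. Without the 9 members, which were chosen for having a peak, it was 1 of 56 list genes (1.79%). The groups differed in this. The genes placed in that way were 5 of the 6 actins, 11 of the 17 of monomer binding and recycling and 9 of the 10 Arp2/3 subunits. They were also 11 of the 13 of the WAVE complex and N-WASP, 7 of the 12 capping genes, 2 of the 3 Ena/VASP genes and 14 of the 16 nucleators. A gene with no peak was not shown to lack Mov10, since the list gives no counts outside peaks. The study states a larger total of peaks than the list used here holds, so peaks that were called may be absent from it.

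Other peaks lay near the rule's edge and were singled out after their values were seen. Tmsb10, which encodes thymosin beta-10 and is close kin of Tmsb4x, had a peak on its own strand (chr6:72957401-72957800) that shared 398 bases with its exons, with 974 IP reads, 39 input reads and a ratio of 20.8 (15.1 to 29.5). The list holds no peak at all on the strand of chromosome 6 where the rule would look for Tmsb10. A peak that shared 69 bases with exons of Arpc1b on its own strand lay over Pdap1, and a peak inside Ssh2, off its exons, lay over the pseudogene Gm12346. The smallest overlap that the rule let in was the 23 bases of Evl exon 7.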

How the data were processed

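RNA of the Mov10 IP and of the input was sequenced as 1 library each. Per the submitters' processing notes, base calls were made with bcl2fastq 2.17.1.14 and reads were aligned with TopHat2 2.1.1 to unmasked mm10. The authors ran RIPSeeker on each strand, assigned reads with several alignments to a single place, and deposited peaks with the read count of the IP and of the input (not scaled to depth), an adjusted p-value and an eFDR, used here as they stand. The columns of scores were not used. Reads that aligned numbered 71522027 in the IP and 59620379 in the input, as the study's methods give them.

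Counts were divided by these totals, and the IP by the input. Exact conditional (Clopper-Pearson) intervals at 95% were tested on simulated data. They cover counting error only, and PCR copies of a molecule are not separated. Medians carry a pseudocount of 0.5, and 3 reads stand in for an input of 0. With 1 library per group no test across samples was made. Genes were placed by exons of GENCODE M21, sharing at least 1 base; RefSeq exons were not used here. For each gene the protein-coding transcript sharing most bases with its peaks was taken, stop codon included in the coding part. Sequence features are those of exonic bases. Copies were sought with BLAST+ 2.17.0 among GENCODE transcripts (95% identity over 100 bases), leaving out genes that lie on the peak itself. A percentile is the share of genes or peaks at or under a value. Python 3.11.15, numpy 2.4.6, pandas 2.3.3, scipy 1.17.1 and matplotlib 3.10.9 were used.

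All 9 genes are named in full, with any other gene of the 8 lists that has an exonic peak and genes that a member peak covers. Of the copies of member peaks only some are named. The members and lists were chosen with earlier results of these data known. The result of 1 list is not reported here. Alternatives were other library totals, a pseudocount of 1, at least 50% of the peak in exons, the eFDR, no copies, single peaks per gene, an adjusted p of 0.01, either strand, at least 10 IP reads, and copies of 90% over 50 bases.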

Additional observations from a re-analysis of the deposited data

How the results depend on the processing

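All 18 peaks kept an interval above 1 under each other library total, but the totals set the size of every ratio. The median over the 9 genes, 4.51, became 2.76 with uniquely aligned reads (8.84 over all genes with an exonic peak) and 2.13 with reads within chromosome peaks (6.81), and each gene's ratio shrank by the same factors, 0.613 and 0.472. The median was 5.45 with at least 50% of the peak in exons (13 peaks in 8 genes, Evl at 33.6 on 1 peak, Brk1 left out), 5.45 without peaks that have a copy (15 peaks in 8 genes, Actb left out), 7.44 over the 4 genes with an eFDR at or under 0.05, 6.40 with the peak of most IP reads and 3.35 with the peak of lowest ratio. It stayed under the median of all genes in each. With the eFDR, 9 peaks stood above the input, 9 passed in place of 18, and 5 list genes in place of 10 had a peak. The 3′ UTR share of the exonic bases, 52.5%, was 41.3% without the peak with the most of them, in Capza2, an alternative chosen after seeing the data. A pseudocount of 1, an adjusted p of 0.01, either strand and a minimum of 10 IP reads moved no count of member peaks or list genes by more than 1.5 times. With copies of 90% over 50 bases, the member peaks with a copy stayed at 3 of 18 (16.7%). Over all exonic peaks with a transcript sequence, the count rose from 66 to 127 of 657 (19.3%). The members' share then lay under that of all exonic peaks, where with the main rule it lay above. Under both rules the shares count peaks with too few exonic bases to have a copy, which were more frequent among the members. The copies at Actb rose from 1 to 19, and at the coding Actg1 peaks from 5 and 6 to 10 and 11. The alternatives with RefSeq exons alone and with the bases of the whole peak were not run, and exons of GENCODE alone are what was used throughout. No paired analysis was possible because each group has 1 library. Depth limits Arpc4, Capzb, Capza2 and the last Evl peak most, with 67 to 85 input reads in a peak.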
